A study of Mus musculus with 4 samples.

Results

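The genes described here are 34 genes of the cardiomyocyte contractile and electrical machinery, examined for TEAD1 binding in cells that are not cardiomyocytes. They were listed by function, with earlier results of these data known, and are 34 of 21631 protein-coding genes on chromosomes 1 to 19 and X. The chromatin came from cardiac fibroblasts of newborn mice, in which TEAD1 was either overexpressed from a construct (OE-TEAD1) or not (OE-NC, the negative control of overexpression). Each condition gave 1 immunoprecipitated (ChIP) library and 1 input library, 4 libraries in all, with no replicates. The sources used here name neither the antibody, nor the vector and its promoter, nor the number of animals behind each culture. The measurements are 2 deposited lists of peaks, each called against input, and the labels tie neither list to a condition. They are called list 1 and list 2 here, and no effect of overexpression can be read from them. That both hold TEAD1 binding is the study's description and was not tested here. Peak lists hold no RNA levels, so neither the fibroblast label nor the presence of stray cardiomyocytes could be checked against marker expression.

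Heart muscle contracts when myosin of the thick filament pulls on actin of the thin filament, and troponin on the thin filament makes this depend on calcium. Calcium enters through the L-type channel, releases more calcium from the sarcoplasmic reticulum through the ryanodine receptor, and is then pumped back or exchanged for sodium. TEAD1 belongs in this picture because it was classically described as the factor that binds the MCAT element, CATTCCT, in promoters of striated muscle genes, cardiac troponin T among them. In fibroblasts TEAD factors are better known as the DNA-binding partners of YAP and TAZ.

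A gene was counted when a peak summit lay inside its annotated span or within 10 kb of either end (GRCm38). The fold over input is the authors' value for the peak, and the strongest peak of a gene is that of highest −log10 q. The number of ChIP fragments at each summit and the local background were solved from the deposited values, and gave a 95% Poisson confidence interval (CI) for each fold, which covers counting error in the ChIP library only. The lists held 21285 and 21218 peaks with a median of 19 and 22 fragments at the summit. The median peak stood at a fold of 6.24 and 6.83.

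No peak of either list touched a promoter of the 30 genes with an annotated one. Among other genes with such an entry 1.93% in list 1 and 1.77% in list 2 were touched, so this absence is no result about the members. Several of the members' promoters carry the classical TEAD element. RefSeq promoters of GRCm38.p6, which run from 250 bases before to 50 bases after a transcription start, were at hand for 30 of the 34 genes in 43 windows. Atp2a2, Kcnq1, Myom2 and Tcap had no entry. The core element CATTCC, searched on both strands, occurred in 9 of the 30 genes: Myh6, Myh7, Myl3, Myl7, Nebl, Nppb, Tnnc1, Tnnt2 and Ttn. Of the 43 windows 20.9% held it, against 13.5% of 21045 protein-coding promoters of the same length. The longer MCAT element CATTCCT, which contains the core, occurred in 6 of the 30 genes (14.0% of windows against 4.74% of all promoters). The AP-1 element TGANTCA, which overlaps neither in sequence, occurred in Ldb3 and Nebl (6.98% of windows against 7.04%). These matches describe letters in a window and are not sites of binding.

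The Tnnt2 promoter is shown whole because it is the textbook MCAT promoter. It lies at chr1:135836084-135836383 on the plus strand, and capitals mark the CATTCC core, which begins 27 bases before the annotated start.

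Tnnt2 promoter: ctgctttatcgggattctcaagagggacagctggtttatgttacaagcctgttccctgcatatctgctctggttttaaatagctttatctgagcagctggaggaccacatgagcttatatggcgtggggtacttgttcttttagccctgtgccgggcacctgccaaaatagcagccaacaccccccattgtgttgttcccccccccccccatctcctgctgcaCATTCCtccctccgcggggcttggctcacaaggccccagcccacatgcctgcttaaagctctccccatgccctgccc

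The MCAT elements of the 6 genes are set side by side with 10 bases on each side, and capitals mark CATTCCT. The Myh6 and Nppb elements lie on the strand opposite to the gene and are printed in the orientation of the element. The stretches are chr14:54966798-54966824 on the plus strand, chr9:110763519-110763545 on the plus strand, chr11:5898836-5898862 on the minus strand, chr2:17670379-17670405 on the minus strand, chr4:147985784-147985810 on the minus strand and chr1:135836297-135836323 on the plus strand. They were chosen for printing after the search.

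Myh6: tccttgggcaCATTCCTcctccccaaa
Myl3: ctcccccaccCATTCCTgggcttgaac
Myl7: cccaatcatcCATTCCTctccttattt
Nebl: agagaatctaCATTCCTtcgtcagtgc
Nppb: ttatcagctgCATTCCTgccggctgag
Tnnt2: tcctgctgcaCATTCCTccctccgcgg

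The flanks of these elements differ from gene to gene, and the 7 shared letters are what the search fixed. None of the 9 windows with the core was overlapped by a peak. The nearest summit lay between 8.10 and 308 kb from the start of these windows in list 1 and between 4.79 and 343 kb in list 2. For Tnnt2 itself it lay 11.1 kb away in list 1 (4.55-fold over input) and 27.4 kb away in list 2 (8.67-fold). An overlap at a promoter was uncommon in these lists generally. Of all 2837 promoters with the core 122 were overlapped by a list 1 peak (4.30%) and 105 by a list 2 peak (3.70%), against 1.28% and 1.2% of promoters without it. A summit within 1 kb of the gene's own start was found for 0 of the 30 genes in each list. The share among all protein-coding genes with a promoter entry was 4.56% and 4.21%, which would come to 1.37 and 1.26 of 30 genes. The absence of such summits is therefore no result about these genes. Among member summits with an annotated own start, the closest lay 5.30 kb from it in list 1 and 4.79 kb in list 2, with a median distance of 22.2 and 21.2 kb.

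Over the whole set, 18 of 34 genes had a summit in the span or within 10 kb in list 1 and 15 of 34 in list 2. That is 52.9% (exact 95% CI 35.1 to 70.2) and 44.1% (27.2 to 62.1), where 33.7% and 33.8% of all protein-coding genes had one. The members are longer than other genes, with a median span of 25 kb against 17.3 kb, and longer genes catch more summits. Other protein-coding genes in the same span classes, each a factor of 2 wide and weighted to the members, had a summit in 38.6% and 39.2% of cases, or 13.1 and 13.3 of 34. Both shares lie inside the members' intervals, but this is not a test of the set. The intervals treat the genes as independent draws, whereas the genes were picked by function and Nppa and Nppb share a peak. The members' share was 1.37 and 1.13 times that of genes of like span. A summit in both lists was found for 12 of 34 genes (35.3%), with a background of 28.0% over all protein-coding genes and 33.2% at like span. Peaks of at least 10-fold over input were found for 5 genes in list 1 and 8 in list 2, where 11.5% and 13.4% of all genes had one and genes of like span would give 5.24 and 5.98.

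**Figure D1:**
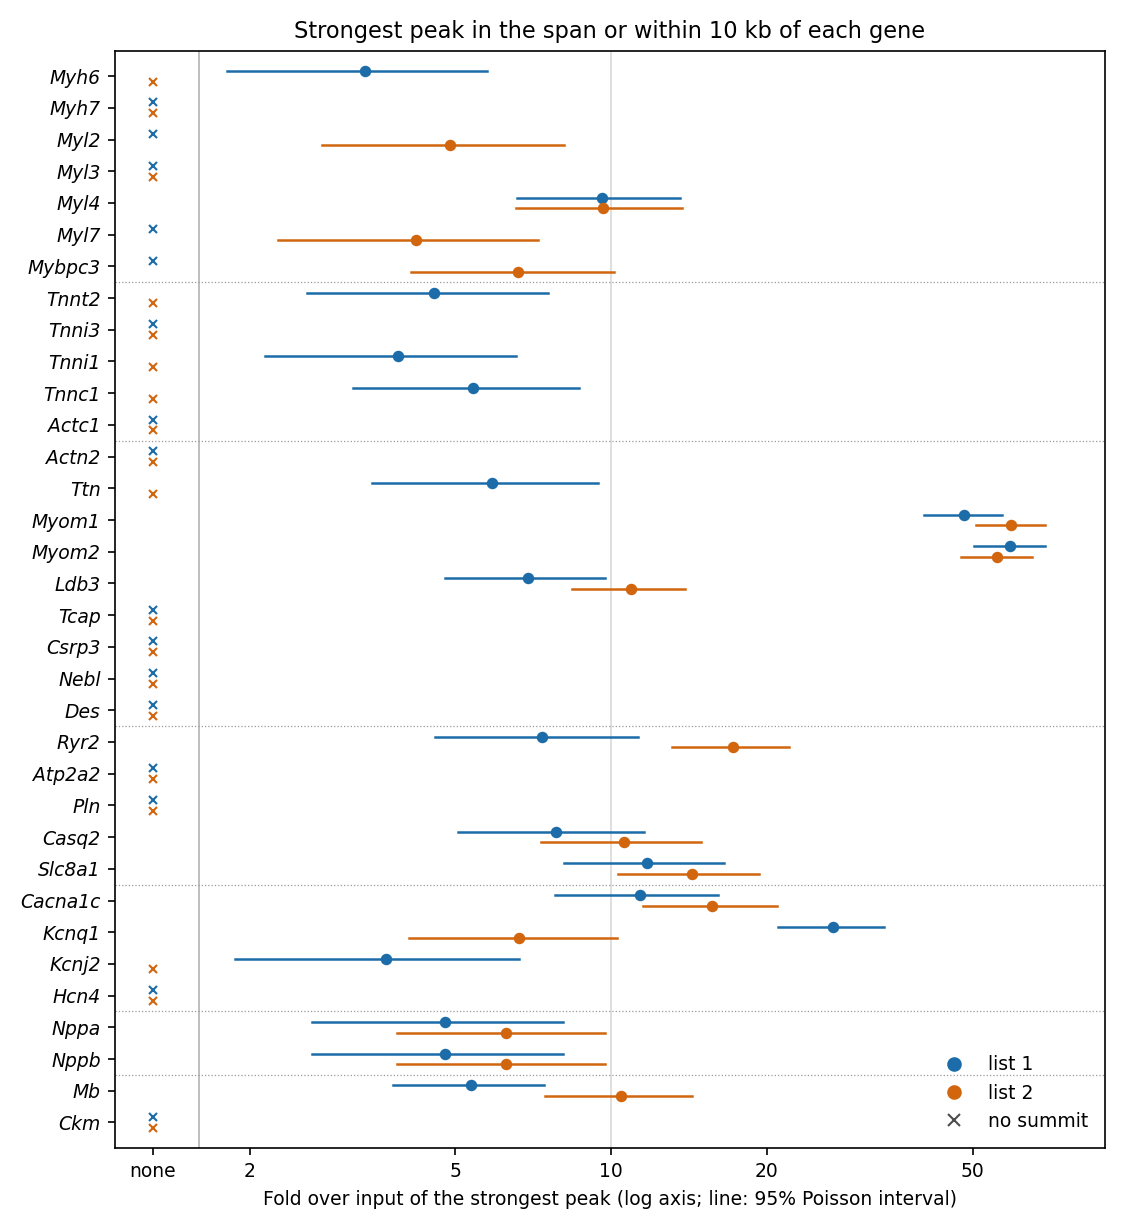
Fold over input (log axis) of the strongest peak (highest −log10 q) in the span or within 10 kb of each of the 34 genes, with list 1 in blue and list 2 in orange; lines are 95% Poisson counting intervals, crosses mark genes without a summit, and dotted lines separate the functional groups. Myom1 and Myom2 stand highest in both lists, Kcnq1 is at 26.8-fold in list 1 and 6.63-fold in list 2, and 13 genes have no summit in either list.

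**Figure D2:**
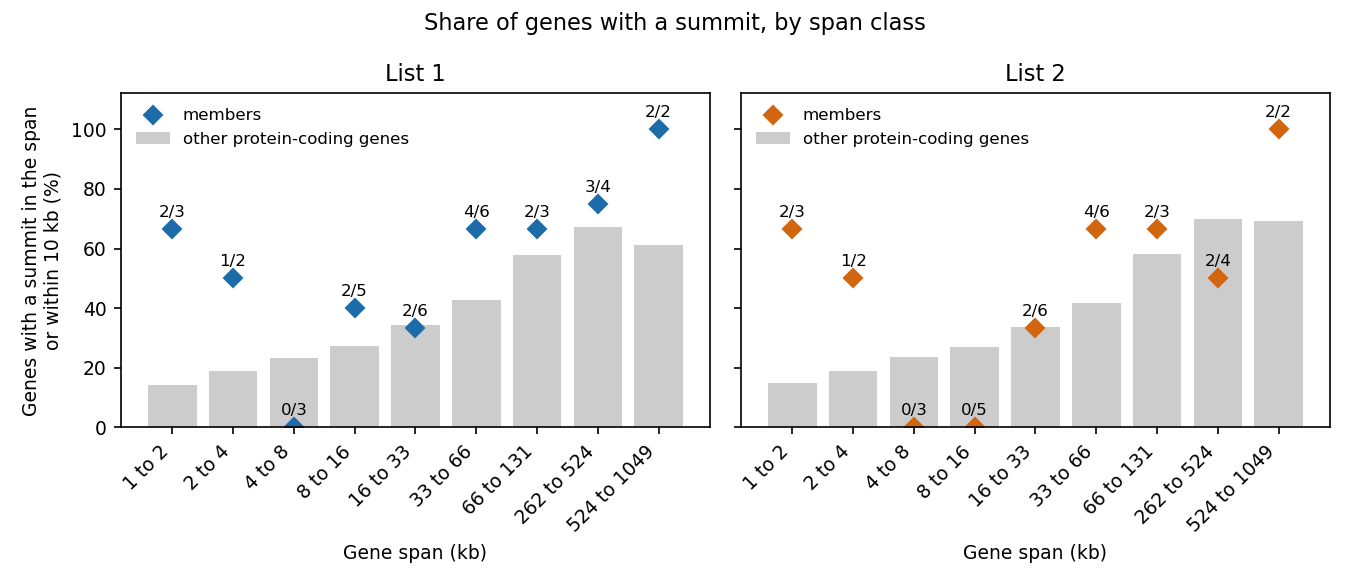
Share of genes (%) with a summit in the span or within 10 kb, by class of gene span (kb), in list 1 and list 2; grey bars are other protein-coding genes and diamonds are the members, with their number above. The share of other genes rises from 14.3% in the class of 1 to 2 kb to 67.3% in that of 262 to 524 kb in list 1, and each class holds at most 6 members.

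Peaks at thick filament genes were all under 10-fold over input. Of its 7 genes 2 had a summit in list 1 and 4 in list 2, where genes of like span would give 2.22 and 2.19. Myl4, the atrial essential light chain, was found in both lists. Its strongest peak, on chromosome 11 at 104560872 to 104561397, lay inside the gene 10.5 kb downstream of the annotated start and was 9.61-fold over input with 30 fragments in list 1 (95% CI 6.59 to 13.6). List 2 gave 9.64-fold there, with 29 fragments (6.56 to 13.7). The lists thus gave this site nearly the same height. Myl4 had 3 summits in list 1 and 2 in list 2. The others were 3.55-fold and 5.15-fold in list 1, both outside the span, and 4.07-fold in list 2, inside it. The 3.55-fold summit lay inside the span of the neighbouring gene Cdc27.

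Myh6, the alpha myosin heavy chain of the adult mouse ventricle, had 1 peak in list 1, 3.34-fold over input with 11 fragments (95% CI 1.81 to 5.76). It lay 2.33 kb beyond the far end of the gene, 27.0 kb from the start and inside the span of the neighbouring gene Cmtm5. List 2 had no summit within 291 kb of Myh6. Myh7, the beta heavy chain next to it that marks fetal and slow muscle, had no summit within 10 kb in either list. Its nearest summits were 31.1 kb away in list 1 and 319 kb away in list 2, and 12% of other genes were as far from a list 2 summit. The genes Myl2, Myl7 and Mybpc3 each had 1 peak in list 2 alone. Myl2, the ventricular regulatory light chain, had 13 fragments and 4.88-fold over input, Myl7, its atrial counterpart, 11 fragments and 4.19-fold. Mybpc3, cardiac myosin-binding protein C, had 19 fragments and 6.60-fold. The Myl2 summit lay inside the span of the neighbouring gene Ccdc63, and the Mybpc3 summit inside that of Spi1. Myl3, the ventricular essential light chain, had none, with its nearest summits at 20.8 and 20.7 kb.

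At the 10 kb limit the thin filament was represented in list 1 only, by weak peaks. Of 5 genes 3 had a summit in list 1 and 0 in list 2, where genes of like span would give 1.27 and 1.26. Tnnt2, cardiac troponin T, which ties the troponin complex to tropomyosin, had a peak inside the gene on chromosome 1 at 135847059 to 135847634. It was 4.55-fold over input with 13 fragments (95% CI 2.58 to 7.56) and lay 10.5 kb downstream of the nearest annotated start. Tnni1, the slow skeletal and fetal inhibitory troponin, had a site 5.86 kb outside its span, 3.87-fold with 12 fragments. Tnnc1, the calcium-binding troponin of heart and slow muscle, had 15 fragments and 5.4-fold at a site 8.65 kb outside, within the span of Nisch. List 2 had a different site near Tnnc1, 10.1 kb from its end and 8.48-fold over input, just beyond the 10 kb limit. The nearest list 2 summits were 11.4 kb from Tnnt2 (8.67-fold) and 18.7 kb from Tnni1 (12.9-fold), higher than the list 1 peaks counted for these 2 genes. Tnni3, the adult cardiac inhibitory troponin, and Actc1, cardiac alpha-actin, had none, with nearest summits at 27.5 and 27.4 kb for Tnni3 and 34.8 and 34.4 kb for Actc1. With 1 library behind each list, the difference between 3 and 0 genes has no replicate check.

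Genes of the M-band, which crosslinks thick filaments in the middle of the sarcomere, carried the strongest peaks of the set. Myom2, encoding M-protein, had a peak inside the gene on chromosome 8 at 15072597 to 15073668. It was 59.1-fold over input with 160 fragments in list 1 (95% CI 50.4 to 69.0) and 55.8-fold with 159 fragments in list 2 (47.5 to 65.2). Its summits were 5 bp apart between the lists, and it ranked in the top 0.319% of list 1 and the top 0.952% of list 2 by −log10 q. A further site inside Myom2 was weak in both, 5.14-fold with 13 fragments and 7.03-fold with 26.

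Myom1, encoding myomesin, had 3 summits in list 1 and 5 in list 2, and its strong ones lay beside the gene. The strongest, on chromosome 17 at 70993229 to 70994217, was 48.1-fold over input with 130 fragments in list 1 (95% CI 40.3 to 57.1) and 59.3-fold with 169 fragments in list 2 (50.8 to 68.9). It lay 9.58 kb outside the Myom1 span in list 1, near the 10 kb limit, and 3.23 kb from the start of Myl12b. The next, 3.98 kb outside the span, was 36.7-fold in list 1 and 45.7-fold in list 2, and lay inside Myl12a. Myl12a and Myl12b encode regulatory light chains of nonmuscle myosin. The list 1 peak at this site was 3387 bp wide and overlapped 3 separate list 2 peaks, the last of them only at its edge. Inside Myom1 itself each list had 1 weak summit, 4.45-fold with 15 fragments in list 1 and 5.82-fold with 19 in list 2, at different places. The map of summits shows this contrast between Myom1, whose strong summits stand outside the gene, and Myom2, whose strong summit stands inside.

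**Figure D3:**
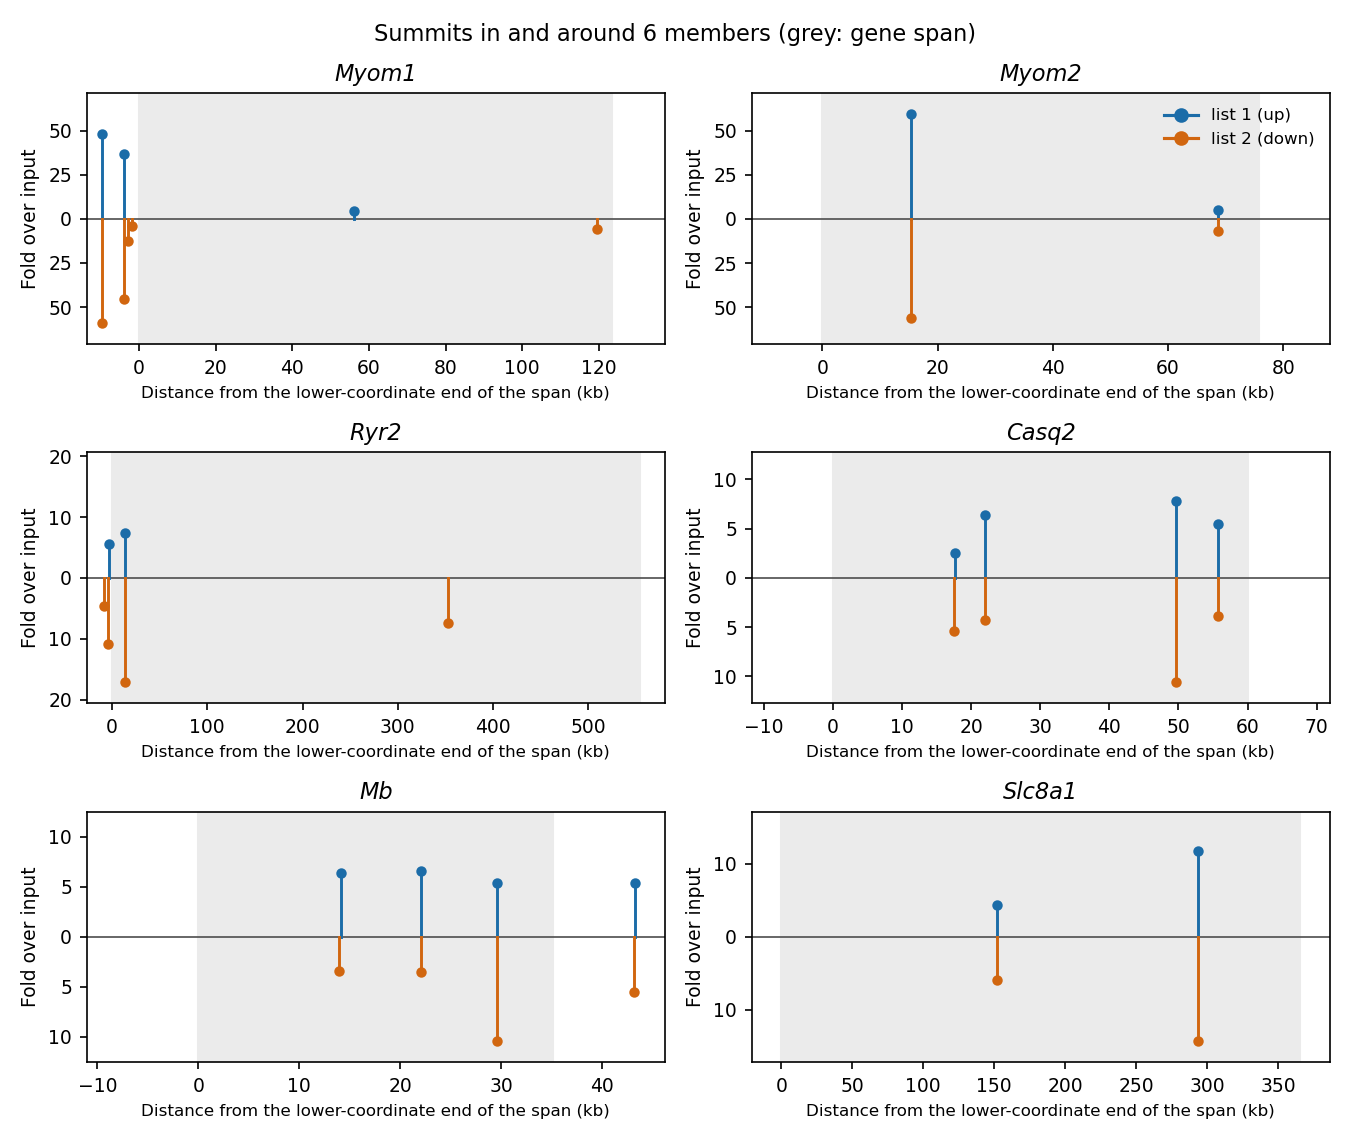
Summits in and within 10 kb of 6 members, placed by their distance (kb) from the lower-coordinate end of the gene span (grey); height is the fold over input, drawn upwards for list 1 and downwards for list 2, with a separate scale for each gene. The strong Myom1 summits lie 9.58 and 3.98 kb outside the span in list 1, while Casq2 and Mb each have 4 weak or moderate summits at matching places in both lists.

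Of the other genes of the Z-disc, titin and intermediate filament group, Ldb3 and Ttn had a summit. Together with the M-band genes, 4 of 9 had a summit in list 1 and 3 of 9 in list 2, where genes of like span would give 4.27 and 4.32. Ldb3, encoding the Z-disc protein ZASP or Cypher, had a peak inside the gene, 5.998 kb from its far end, that was 6.91-fold over input with 31 fragments in list 1 (95% CI 4.77 to 9.72). In list 2 it was 10.9-fold with 63 fragments (8.42 to 13.9), and the intervals overlapped. Ttn, the giant spring protein that runs from the Z-disc to the M-band, had 1 peak in a span of 279 kb, in list 1 alone (5.88-fold, 15 fragments, 95% CI 3.45 to 9.45). Nebl, encoding nebulette of the Z-disc, had none in its 392 kb in either list, and the nearest summit was 243 kb away in both. Among 468 other genes of like span 33.8% and 31.2% had no summit inside, so an empty gene of this length was not rare. Of other genes of any span 15.5% and 14.8% were as far from a summit as Nebl. Actn2, the sarcomeric alpha-actinin, Tcap, the titin cap, Csrp3, the muscle LIM protein, and Des, the muscle intermediate filament protein desmin, had none within 10 kb. Des came closest, with a summit 12.8 kb away in both lists at 16.1-fold and 13.3-fold over input. Actn2 followed in list 1 at 13.3 kb (4.41-fold), but its nearest list 2 summit was 136 kb away. Tcap had its nearest summits at 18.9 and 19 kb.

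Calcium handling genes with a peak were the release channel, the calcium buffer and the sodium-calcium exchanger, but not the calcium pump or its inhibitor. Of 5 genes 3 had a summit in each list, where genes of like span would give 2.41 and 2.50. Ryr2, the cardiac ryanodine receptor, had 2 summits in list 1 and 4 in list 2. The strongest, on chromosome 13 at 11566303 to 11566706, lay 540 kb from the start and 13.5 kb from the far end. It was 7.34-fold over input with 19 fragments in list 1 (95% CI 4.57 to 11.3) and 17.2-fold with 58 fragments in list 2 (13.1 to 22.1). These intervals did not overlap, with backgrounds of 1.72 and 2.44 fragments. A second shared site, outside the far end, was 5.51-fold with 14 fragments and 10.8-fold with 30 (intervals 3.18 to 8.99 and 7.41 to 15.3). Both shared Ryr2 sites were thus higher in list 2, and 1 of them beyond counting error.

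Casq2, the calcium-buffering calsequestrin of the cardiac sarcoplasmic reticulum, had 4 summits inside its 60.1 kb in each list, at the same 4 places within 65 bp. Folds over input ran from 2.54 to 7.81 in list 1 and from 3.86 to 10.6 in list 2, on 12 to 31 fragments. None of these peaks was strong, and 2 of the 4 were higher in list 1 and 2 in list 2. Slc8a1, the sodium-calcium exchanger, had 2 summits inside its 365 kb in each list. The stronger was 11.8-fold with 31 fragments in list 1 (95% CI 8.10 to 16.5) and 14.3-fold with 40 in list 2 (10.3 to 19.4). The weaker was 4.41-fold with 11 fragments and 5.94-fold with 17. Atp2a2, the calcium pump SERCA2, and Pln, its inhibitor phospholamban, had no summit within 10 kb, with nearest summits 109 kb from Atp2a2 in both lists and 46.4 and 48.5 kb from Pln.

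Ion channel genes included the site that differed most between the lists. Of 4 genes 3 had a summit in list 1 and 2 in list 2, where genes of like span would give 1.99 and 2.08. Kcnq1, the channel of the slow delayed rectifier potassium current, had 1 peak deep inside its 320 kb, on chromosome 7 at 143367875 to 143368500. In list 1 it was 26.8-fold over input with 72 fragments (95% CI 21.1 to 33.7) and in list 2 6.63-fold with 18 fragments (4.07 to 10.3). The summits were 8 bp apart, the local backgrounds were 1.72 and 1.87 fragments, and the peak ranked in the top 3.76% of list 1 and the top 55.2% of list 2. The log2 ratio of list 2 over list 1 was -2.02. In the lists as a whole 3 of 15015 shared pairs had a ratio as low or lower. This site was singled out after its values were seen.

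Cacna1c, the pore of the L-type calcium channel, had 1 peak in its 610 kb in each list, at the same place 25.9 kb downstream of its nearest annotated start. It was 11.4-fold with 30 fragments in list 1 (95% CI 7.80 to 16.1) and 15.7-fold with 44 in list 2 (11.5 to 21.0). Kcnj2, the inward rectifier that sets the resting potential, had a peak 6.55 kb upstream of its start in list 1 (3.67-fold, 9 fragments). The nearest list 2 summit was at 10.7 kb, outside the limit, and was 2.91-fold. Hcn4, the pacemaker channel, had none, with nearest summits at 107 and 19.2 kb.

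Nppa and Nppb, encoding the natriuretic peptides that stretched heart muscle releases, lie next to each other and shared 1 peak. It lay between them, 6.73 kb from the Nppa span and 6.79 kb from the Nppb span in list 1, on chromosome 4 at 147993838 to 147994175. With 12 fragments it was 4.77-fold over input in list 1 (95% CI 2.64 to 8.06), and with 18 fragments 6.27-fold in list 2 (3.85 to 9.72). The count of 2 of 2 genes therefore rests on a single weak site. Mb, encoding the oxygen-binding protein myoglobin, had 4 summits in each list, 3 inside its span and 1 outside, all at shared sites. The site in the overlap with Apol6 was 5.37-fold in list 1 (95% CI 3.79 to 7.41) and 10.5-fold in list 2 (7.44 to 14.3). The ChIP fragments there were 35 and 37, while the local background was 5.70 and 2.64, so the ChIP counts were close and the backgrounds were not. The other 3 Mb sites were 5.43 to 6.56-fold in list 1 and 3.40 to 5.48-fold in list 2. Ckm, the muscle creatine kinase, had none, with the nearest summits 69.3 kb away.

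**Figure D4:**
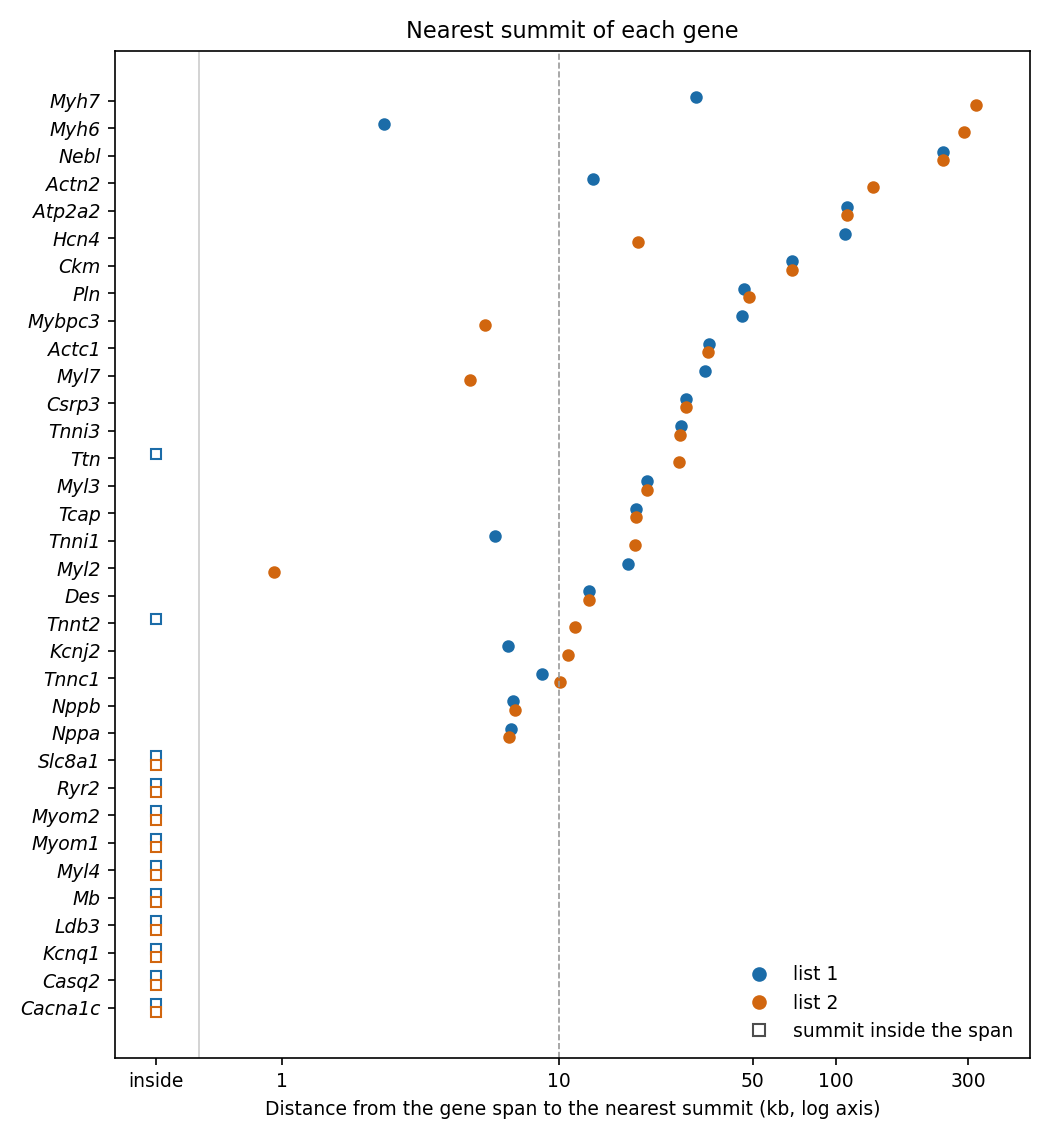
Distance (kb, log axis) from each gene span to the nearest summit in list 1 (blue) and list 2 (orange); open squares at the left are genes with a summit inside the span and the dashed line marks the 10 kb limit. Tnnc1 and Kcnj2 stand inside the limit in list 1 (8.65 and 6.55 kb) and just outside it in list 2 (10.1 and 10.7 kb), and Nebl and Atp2a2 are over 100 kb from a summit in both.

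Genes without a nearby peak were often not far from one. Within 50 kb, 30 of 34 genes had a summit in list 1 and 28 of 34 in list 2, against 58.1% and 58.9% of other genes. The median distance to the nearest summit, counted as 0 where it lay inside, was 7.72 and 11.1 kb for the members and 32.5 and 31.6 kb for other genes. These medians are not adjusted for span. At like span the ratio of shares within 50 kb was 1.44 and 1.32. A distance over 100 kb was found for 3 members in list 1 (Nebl, Atp2a2 and Hcn4) and 5 in list 2 (Myh7, Myh6, Nebl, Actn2 and Atp2a2). Of other genes 29.2% and 28.0% lay over 100 kb from a summit, again not adjusted for span. Just inside the 10 kb limit lay the Myom1 summits at 9.58 and 9.62 kb, and just outside it those of Tnnc1, Kcnj2 and Tnnt2 (11.4 kb) in list 2.

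Pooled over their length, summits inside the long members were thinly spread. The 7 members with spans over 100 kb (Ryr2, Cacna1c, Nebl, Slc8a1, Kcnq1, Ttn and Myom1) held 7 summits in 2.64 Mb in each list, or 2.65 per Mb, where other genes over 100 kb held 9.44 and 9.27 per Mb. Per gene the median was 3.12 per Mb in the members and 6.84 and 6.46 in the others. Against other genes of their own span class, Slc8a1 held 2 summits in each list (class median 2), Myom1 1 (1) and Cacna1c 1 (1.5). Ryr2 held 1 and 2 (1.5), Kcnq1 1 in each list (2), Ttn 1 and 0 (2) and Nebl 0 in each (2). The lower quartile was 0 in each class. No count can fall below that, so the quartile cannot show whether a member was unusually empty. In the 27 shorter members 12 summits lay in 0.650 Mb in each list, or 18.5 per Mb, against 10.8 and 10.5 in other genes of up to 100 kb. Casq2 and Mb held 7 of these 12 in each list, and without them 5 summits in 0.555 Mb gave 9.01 per Mb, a value computed after seeing the data. The median short gene held 0 summits per Mb, among members and others alike. Over all member windows together there were 30 distinct summits in each list, or 7.59 per Mb (95% Poisson interval 5.12 to 10.8), against 10.5 and 10.3 per Mb of windows of other genes. This value rests on the long genes, since without them it was 17.1 and 14.6 per Mb.

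Of the 30 distinct member peaks of each list 19 lay inside a member's span, and 4 in list 1 and 6 in list 2 lay outside it but inside another protein-coding gene. The median member peak stood at 5.48-fold in list 1 and 6.62-fold in list 2, a little under the 6.24 and 6.83 of the whole lists. At least 10-fold were 6 of 30 in list 1 and 11 of 30 (36.7%) in list 2, against 22.9% and 28.1% of all peaks. Of list 1 member peaks 21 of 30 overlapped a list 2 peak, or 70.0% (exact 95% CI 50.6 to 85.3), and 20.2 would do so at the rate of all list 1 peaks in the same deciles of −log10 q. Of list 2 member peaks 23 of 30 overlapped a list 1 peak (76.7%, interval 57.7 to 90.1), with 21.4 at the rate of their deciles. Genes counted in both lists, 12 of them, made up 66.7% of the list 1 genes and 80.0% of the list 2 genes. For other genes these shares were 83.1% and 82.8%.

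The peaks behind genes counted in a single list all stood below the median fold of their list, 6.24 in list 1 and 6.83 in list 2. Myh6, Tnnt2, Tnni1, Tnnc1, Ttn and Kcnj2 were in list 1 alone, with 9 to 15 fragments and folds of 3.34 to 5.88. Myl2, Myl7 and Mybpc3 were in list 2 alone, with 11 to 19 fragments and folds of 4.19 to 6.60. At the 21 shared sites the log2 of the list 2 fold over the list 1 fold had a median of 0.32, where all 15015 shared pairs had 0.15 (SD 0.55 across pairs). The fold was higher in list 2 at 15 of the 21 sites. Counting intervals of the 2 lists did not overlap at 3 sites, those of Kcnq1, Ryr2 and the Mb site whose backgrounds differed. The matching shares over all 15015 shared pairs were not counted, so these 2 counts are no result about the members.

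**Figure D5:**
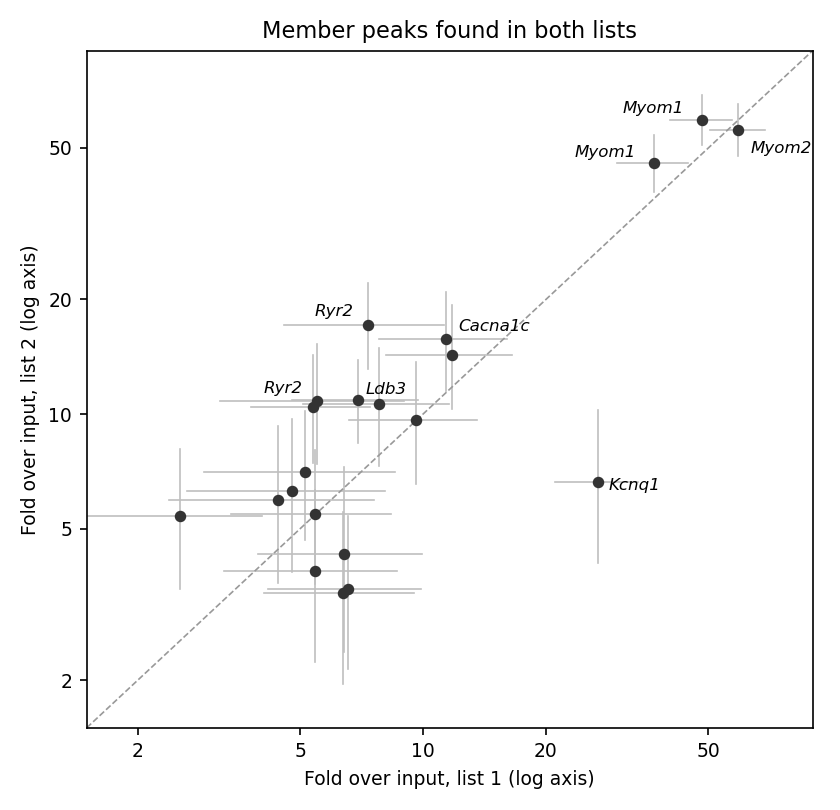
Fold over input in list 1 against list 2 (log axes) at the 21 member sites found in both lists; grey lines are 95% Poisson counting intervals and the dashed line marks equal folds. Myom1 and Myom2 lie at the top near equality, 15 sites lie above the line, and Kcnq1 lies far below it.

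Other genes of the same machinery were counted in the same way. Of 30 further sarcomere genes 12 had a summit in list 1 and 12 in list 2, where genes of like span would give 11.4 in each. The strongest belonged to Cavin4, a caveolar protein of muscle also known as Murc (24.2-fold and 24.7-fold), Fhl2, a LIM protein (21.3-fold and 24.8-fold), and Mylk3, the cardiac myosin light chain kinase (19.6-fold and 21.5-fold). Tnnc2, the fast skeletal troponin C, had 11.4-fold and 20.4-fold, and Xirp1, which binds actin at intercalated discs, 13.6-fold and 19.9-fold. Of 30 further excitation and calcium genes 12 had a summit in list 1 and 16 in list 2, where genes of like span would give 13.3 and 13.5. Kcne1, the accessory subunit of the Kcnq1 channel, was highest in list 2 (16.3-fold and 27.7-fold), and Camk2d, a calcium-dependent kinase, in list 1 (25.2-fold and 20.7-fold). Jph2, which anchors the reticulum to the cell membrane (13.6-fold and 17.4-fold), and Cacnb2, a subunit of the L-type channel (11.5-fold and 12.9-fold), had lower peaks. For comparison, 9 and 8 of 10 fibroblast marker genes had a summit, where genes of like span would give 3.70 and 3.68. Smooth muscle contractile genes had 8 and 6 of 10, against 3.94 and 3.97. No test was made of the difference between these lists and the cardiomyocyte genes.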

How the data were processed

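Reads were trimmed with Trimmomatic 0.33, aligned with Bowtie 1.1.2 and passed to MACS2 for peak calling, by the submitters' processing notes; its settings, and any removal of duplicates, are unknown here. The deposited lists give for each peak a score, the ratio (fold) of ChIP over local input background, and the −log10 p and q, all as the authors' caller wrote them. The notes name mm39. Positions were read as GRCm38, because 1157 and 1089 summits lay within 1 kb of a RefSeq start of that build, against 617 to 678 after shifts of 50 or 100 kb.

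Fragments and backgrounds were solved from fold and p (Python 3.11.15, SciPy 1.17.1), and came out whole within 0.02 for all but 2 peaks per list. The code was tested on simulated data. An overlap of 1 bp or more made a peak shared. Percentages have exact intervals. No test between conditions, and no set test, was made. The fold of the strongest peak is given for the 12 members of highest −log10 q and, where there is a peak, for 11 standard genes. The members and lists were chosen with earlier results of these data known. The labels do not say whether libraries came from separate cultures. Exons and introns were not analysed here, nor were motifs at summits, and some items are not reported here.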

Additional observations from a re-analysis of the deposited data

How the results depend on the processing

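No paired analysis was possible because each group holds 1 library and no list is tied to a condition, and for the same reason no replicate could be left out. The counts of 18 and 15 members became 30 and 28 with a limit of 50 kb, 5 and 6 with the 5000 peaks of highest −log10 q, and 5 and 8 with peaks of at least 10-fold. Counting a summit only for its nearest gene, a setting chosen after seeing the data, left 13 and 9. The share of other genes under that setting was not counted, so this drop is no result about the members. The density of member summits became 17.1 and 14.6 per Mb without spans over 100 kb and 13.1 and 11.3 per Mb with the limit of 50 kb. The ratio to genes of like span ranged from 0.949 to 1.5 in list 1, where the 5000-peak and 10-fold settings took it below 1, and from 1.08 to 1.33 in list 2, lowest with summits inside the span only. That setting left 12 and 10 members. The median fold of member peaks in list 2 went from 6.62 to 10.5, over 1.5 times, when only the strongest peak of each gene was taken. Member peaks rest on 9 to 169 fragments, and the one with 9, near Kcnj2, had a 95% CI of 1.88 to 6.64 around its 3.67-fold.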
